A study of Mus musculus with 35 samples.

Results

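Monocyte and macrophage lineage genes were examined in hematopoietic stem and progenitor cells (HSPCs) of WT and JMJD1B-/- mice. The 9 genes were a list given by name, and no measured value entered its rule. The list was, however, chosen with earlier results of these data known. Its genes are Irf8, Csf1r, Ly86, Emr1, Lyz1, Lyz2, Ctss, Cd68 and F13a1. All 9 were found among the 11982 gene names of the expression table and passed the filter on low values. RNA-seq was available for 2 WT and 2 JMJD1B-/- libraries, out of 35 samples, and the other samples, from ChIP-seq, were not used here. JMJD1B, the product of Kdm3b, removes methyl groups from histones.

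Both genotypes had the mixed background 129P2xC57BL/6J. The knockout is a gene trap derived from 129P2 embryonic stem cells, so the allele was carried by every cell of the animal and not by blood cells alone. HSPCs came from bone marrow, and age-matched littermates are stated as their source for the ChIP-seq and not for the RNA-seq libraries. The study used adult mice of both sexes, and neither age nor sex is given for a library. The labels name no agent for either genotype. Polyadenylated RNA was sequenced, and expression is given as RPKM, the number of reads of a gene divided by its transcript length and by the sequencing depth, so that levels of different genes can be compared.

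Monocytes and macrophages arise from bone marrow progenitors that come to express the transcription factors PU.1 and Irf8 and the receptor for macrophage colony-stimulating factor, Csf1r. The mature cells ingest particles and break them down in lysosomes, which hold lysozyme, cathepsins and glycoproteins such as Cd68. HSPCs include the early cells of this path, among progenitors of all other blood lineages.

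In JMJD1B-/- HSPCs, Irf8, Csf1r, Ly86, F13a1 and Ctss were lower than in WT HSPCs, in both libraries of each genotype. On log2(RPKM + 0.1), the differences from WT ran from -1.35 for Ctss to -2.34 for F13a1, which is 2.54-fold to 5.07-fold lower. These 5 of 9 genes had an unadjusted p under 0.05 in limma, and 0 of 9 were called higher. Among all 11863 genes tested, 6.33% were called lower and 3.81% higher by the same rule. The 9 genes had a median log2 difference of -1.35, against -0.02 over all genes, and 8 of 9 were negative, against 53.0% of all genes. Adjusted over all genes, 0 of 9 members passed 0.05. Over all genes, 4 passed in the lower direction, 0.0337%, and 1 passed in the higher direction, 0.00843%. Of all unadjusted calls 62.4% were lower, and 51.6% with quantile normalization. A gene-by-gene linear model, which shares no spread between genes, called 0 of 9. With 2 libraries a genotype, the p-values measure the spread between single libraries, and an exact permutation test could not give a two-sided p below 0.333. In bulk RNA, fewer cells of a type and less RNA per cell cannot be told apart.

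**Figure D1:**
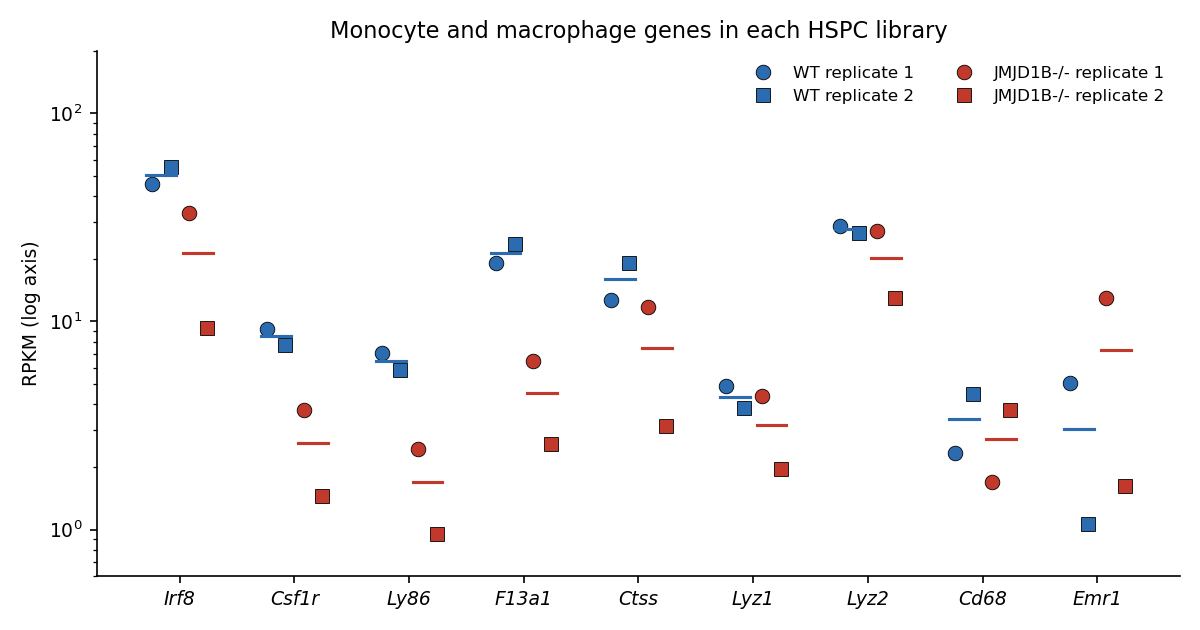
RPKM of each of the 9 genes (log axis) in the 2 WT and 2 JMJD1B-/- libraries. Each symbol is 1 library and each bar the mean of a genotype. For Irf8, Csf1r, Ly86, F13a1 and Ctss both JMJD1B-/- libraries lie below both WT libraries, and JMJD1B-/- replicate 2 is the lowest library for 7 of the 9 genes.

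Several facts about the libraries bear on every value. The depth that the low values of the table imply was about 17500000 and 24600000 reads for WT and 6100000 and 21000000 reads for JMJD1B-/-, so JMJD1B-/- replicate 1 was by far the shallowest. Kdm3b, the targeted gene, had 31.0 and 24.3 RPKM in WT and 4.0 and 4.63 RPKM in JMJD1B-/- libraries, and the labelled knockout libraries held 15.6% of the WT mean. WT replicate 2 stood apart in Xist, the RNA of the inactive X chromosome, with 332 RPKM against at most 0.051 in the others, and it had almost no reads of Y chromosome genes. Ddx3y, on the Y chromosome, had 0.411 RPKM there and 25.5 to 29.3 RPKM in the others. By these genes WT replicate 2 was female and the other libraries were male, so sex was not balanced between genotypes. The part of sex in the differences was not tested. All 11 of 11 HSPC marker genes fixed for the check were in the table and had at least 3 reads in every library, with a summed level of 266 to 298 RPKM in WT and 165 to 220 RPKM in JMJD1B-/-. Of these markers 5 of 11 were called lower and 0 higher, with a median log2 difference of -0.77, and 1 was called when WT replicate 1 was left out. Of the B cell markers 1 of 8 was listed, Cd79b, of the antigen receptor, at 3.28 and 1.99 RPKM in WT and 1.22 and 0.631 RPKM in JMJD1B-/- libraries (unadjusted p = 0.0381 in limma), a call lost when any library but knockout replicate 1 was left out.

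In WT HSPCs the 9 genes spanned a wide range of levels. Irf8 was highest at 50.5 ± 6.43 RPKM (SD, n = 2), above 91.7% of the listed genes. Lyz2 followed at 27.7 ± 1.36 RPKM, F13a1 at 21.2 ± 3.16 RPKM and Ctss at 16.0 ± 4.62 RPKM. All 4 were in the upper part of the table. Csf1r was in its middle at 8.48 ± 1.05 RPKM, above 44.1% of the listed genes. Ly86 had 6.44 ± 0.849 RPKM, Lyz1 4.36 ± 0.741 RPKM, Cd68 3.41 ± 1.51 RPKM and Emr1 3.06 ± 2.82 RPKM. Neighbours in this order did not overlap between libraries, except F13a1 and Ctss, Lyz1 and Cd68, and Cd68 and Emr1. In JMJD1B-/- HSPCs the order of the means was Irf8, Lyz2, Ctss, Emr1, F13a1, Lyz1, Cd68, Csf1r and Ly86, and of its neighbours only Lyz2 and Ctss did not overlap.

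Irf8 is a transcription factor that directs progenitors to monocytes and dendritic cells and away from neutrophils. It had 45.9 and 55.0 RPKM in WT and 33.3 and 9.34 RPKM in JMJD1B-/- libraries. Both knockout libraries were below both WT libraries, but they differed from each other by 3.56-fold, more than the gap to WT for replicate 1. The log2 difference was -1.50 (SE 0.51, 95% interval -2.70 to -0.31), a 2.84-fold lower level, with an unadjusted p of 0.0203 and an adjusted p of 0.42 in limma. The gap shrank to -0.59 when knockout replicate 2 was left out and widened to -2.42 when knockout replicate 1 was. When WT replicate 2 was left out the call was lost, at an unadjusted p of 0.0852 in limma, and limma without the trend lost it too, at 0.0746.

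Csf1r is the receptor through which CSF1 and IL-34 sustain monocytes and macrophages. Its transcripts were at 9.22 and 7.73 RPKM in WT and 3.75 and 1.45 RPKM in JMJD1B-/- libraries. The genotypes did not overlap, and the WT libraries lay close together while the knockout libraries differed by 2.58-fold. On the log2 scale the genotypes differed by -1.80 (SE 0.45, 95% interval -2.87 to -0.74), a 3.49-fold lower level, with an unadjusted p of 0.00484 and an adjusted p of 0.275 in limma. It ranged from -1.15 to -2.46 when 1 library was left out, and an unadjusted p under 0.05 was kept each time. About 22.9 and 30.6 reads per kilobase lay behind the knockout values, so counting error alone is of some size there.

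Ly86, also called MD-1, is a secreted protein that pairs with the Toll-like receptor homolog Cd180 on the surface of B cells, macrophages and dendritic cells. It had 7.04 and 5.84 RPKM in WT and 2.45 and 0.95 RPKM in JMJD1B-/- libraries, with as few as 15.0 reads per kilobase behind the latter. Its pattern was that of Csf1r, with both knockout libraries low and replicate 2 the lower. Its log2 difference was -1.99 (SE 0.48, 95% interval -3.12 to -0.86), a 3.98-fold lower level, with an unadjusted p of 0.00394 and an adjusted p of 0.258 in limma. Leaving out 1 library gave values from -1.35 to -2.63, and the unadjusted p stayed at or under 0.0489.

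F13a1 encodes the A subunit of coagulation factor XIII, a transglutaminase that cross-links fibrin and is made by monocytes, macrophages and megakaryocytes. It had 19.0 and 23.5 RPKM in WT and 6.43 and 2.59 RPKM in JMJD1B-/- libraries. This was the gene with the widest gap between genotypes, and the knockout libraries held 30.3% and 12.2% of the WT mean. Knockout minus WT was -2.34 on the log2 scale (SE 0.41, 95% interval -3.30 to -1.38), a 5.07-fold lower level, with an unadjusted p of 0.000614 and an adjusted p of 0.156 in limma. It ranked 37 by p-value among the genes with a lower level in JMJD1B-/-. Leaving out 1 library moved the log2 difference between -1.70 and -2.98, with an unadjusted p of at most 0.00861. The megakaryocyte markers, for a cell type that shares F13a1, summed to 589 and 518 RPKM in WT and 213 and 333 RPKM in JMJD1B-/- libraries, and 4 of 5 were called lower, or 2 of 5 when either WT library or knockout replicate 1 was left out. Their part in the F13a1 difference was not tested. F13a1 and Ly86 are neighbours on chromosome 13, with 0 genes of the table between them by symbol, in the RefSeq annotation of GRCm38.p6.

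Ctss, cathepsin S, is a lysosomal cysteine protease that trims the invariant chain before antigen is loaded on class II molecules. It had 12.7 and 19.2 RPKM in WT and 11.7 and 3.14 RPKM in JMJD1B-/- libraries. The first knockout library lay just under the first WT library, and the second far below. The log2 difference was -1.35 (SE 0.56, 95% interval -2.65 to -0.05), a 2.54-fold lower level, with an unadjusted p of 0.0443 and an adjusted p of 0.483 in limma. This call was the least firm of the 5. It was lost in limma when WT replicate 1 (unadjusted p = 0.0587), WT replicate 2 (unadjusted p = 0.201) or knockout replicate 2 (unadjusted p = 0.164, log2 difference -0.42) was left out, and with median-ratio scaling (unadjusted p = 0.0825), quantile normalization (unadjusted p = 0.0869) or no trend (unadjusted p = 0.114).

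The DNA before Ctss and F13a1 is shown because these are the called genes whose promoter window held a site for PU.1, the factor that opens monocyte genes. Sequences are from RefSeq on build GRCm38.p6, are written 5′ to 3′ on the strand of the gene, and have the PU.1 letters in capitals. The Ctss stretch is on the plus strand at chr3:95526686-95526791 and runs from 100 bases before to 6 bases after the start of the transcript, with the site on the opposite strand. The F13a1 stretch is on the minus strand at chr13:37049190-37049313 and runs from 100 bases before to 24 bases after the inner of its annotated starts.
Ctss: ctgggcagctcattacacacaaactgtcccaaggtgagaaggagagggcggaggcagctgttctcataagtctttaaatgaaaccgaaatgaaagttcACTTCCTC
F13a1: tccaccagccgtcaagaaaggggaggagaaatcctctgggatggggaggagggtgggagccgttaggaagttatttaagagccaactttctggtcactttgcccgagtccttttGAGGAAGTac

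Motifs of PU.1, of PU.1 with an interferon regulatory factor and of C/EBP factors were searched on both strands over 300 bases, from 250 before to 50 after a start. The promoter table held 9 windows for 7 of the 9 genes, all but Csf1r and Emr1. The PU.1 letters GAGGAAGT occurred in 2 of the 9 windows, those shown, and in 3.2% of all 32851 promoters. The ETS-IRF composite element, at which an ETS factor such as PU.1 binds with Irf8 or Irf4, occurred in 1 of 9 windows, that of Cd68, and in 2.72% of all. The C/EBP letters TTGCNNAA occurred in 2 of 9, those of Cd68 and Lyz1, and in 10.8% of all. These matches describe the windows and were not compared with binding.

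The lysozymes, which cut bacterial cell walls, were not called. Lyz2, the form of macrophages and granulocytes, had 28.7 and 26.7 RPKM in WT and 27.3 and 12.9 RPKM in JMJD1B-/- libraries. Lyz1, best known from Paneth cells of the gut, had 4.88 and 3.83 RPKM in WT and 4.38 and 1.95 RPKM in JMJD1B-/- libraries. For both genes, knockout replicate 1 was level with WT and knockout replicate 2 was below it, so the genotypes overlapped. The log2 differences were -0.56 for Lyz2 (SE 0.34, 95% interval -1.35 to 0.23, unadjusted p = 0.139, adjusted p = 0.617 in limma) and -0.55 for Lyz1 (SE 0.45, 95% interval -1.59 to 0.50, unadjusted p = 0.258, adjusted p = 0.708 in limma). Leaving out knockout replicate 2 gave -0.02 and 0.02. Leaving out knockout replicate 1 gave -1.10 and -1.11, with an unadjusted p of 7.08e-05 and 0.00707 in limma. The interval for Lyz2 includes no change and also a level well below WT.

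Lyz1 and Lyz2 are tandem copies on chromosome 10, and the 2 genes stood in an almost fixed ratio. Lyz1 was 17.0% and 14.3% of Lyz2 in WT and 16.0% and 15.2% in JMJD1B-/- libraries, on RPKM. The counting program and its treatment of reads that match both copies are not given in the sources used here, so how the reads were divided is uncertain. The sum of both genes gave the same picture, with an unadjusted p of 0.139. The 150 bases before each start are shown because the copies are alike near the start too, and capitals mark the bases that differ. Both are from RefSeq on GRCm38.p6 and on the minus strand, Lyz2 at chr10:117282273-117282422 and Lyz1 at chr10:117292869-117293018. The stretches were identical at 129 of 150 bases, 86.0%, and at all 50 of the last 50 bases. Over 250 bases before the start 152 were identical, 60.8%. Bases were compared position by position without gaps, so likeness that is shifted between the copies would not be counted.
Lyz2: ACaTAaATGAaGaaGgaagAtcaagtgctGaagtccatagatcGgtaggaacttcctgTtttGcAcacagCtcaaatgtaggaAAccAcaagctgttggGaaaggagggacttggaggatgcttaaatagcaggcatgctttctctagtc
Lyz1: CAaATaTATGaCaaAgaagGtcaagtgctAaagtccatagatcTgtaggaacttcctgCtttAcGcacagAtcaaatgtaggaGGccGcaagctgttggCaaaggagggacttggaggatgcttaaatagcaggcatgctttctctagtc

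Cd68, a heavily glycosylated lysosomal membrane protein used to stain macrophages, had 2.34 and 4.48 RPKM in WT and 1.69 and 3.75 RPKM in JMJD1B-/- libraries. Replicate 2 was the higher in each genotype, the reverse of most of the other genes. The log2 difference was -0.35 (SE 0.52, 95% interval -1.55 to 0.86, unadjusted p = 0.521, adjusted p = 0.851 in limma), and the genotypes overlapped. The WT libraries alone differed by 1.91-fold and the knockout libraries by 2.21-fold, and the lowest value rested on 10.4 reads per kilobase. Of its kin in the lysosomal membrane, Lamp1, Lamp2 and Lamp3, 0 of 3 were called, and Lamp3 had 3.79 and 4.22 RPKM in WT and 6.41 and 4.86 RPKM in JMJD1B-/- libraries (unadjusted p = 0.168 in limma).

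Emr1, now Adgre1, encodes the classical surface marker of mouse macrophages, an adhesion receptor that eosinophils carry as well. It had 5.05 and 1.06 RPKM in WT and 13 and 1.61 RPKM in JMJD1B-/- libraries. It was the member with a difference above 0 and the most unequal replicates, 4.76-fold apart in WT and 8.06-fold in JMJD1B-/-, with replicate 1 the higher in each genotype. The log2 difference was 0.95 (SE 1.00, 95% interval -1.40 to 3.30, unadjusted p = 0.373, adjusted p = 0.778 in limma). Leaving out WT replicate 2 turned it to -0.12, and leaving out knockout replicate 1 to -0.51. When knockout replicate 2 was left out it was called higher, at 2.42 and an unadjusted p of 0.00604 in limma.

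The eosinophil markers, fixed to check for other cells, also ran high in replicate 1 of each genotype. Prg2, the major basic protein of eosinophil granules, had 5380 and 988 RPKM in WT and 4330 and 1080 RPKM in JMJD1B-/- libraries. Epx, eosinophil peroxidase, had 189 and 52.9 RPKM in WT and 124 and 35.9 RPKM in JMJD1B-/- libraries. The order was the same for Siglec5, and not for Ccr3, the eotaxin receptor, at 1.7 and 2.47 RPKM in WT and 5.5 and 0.741 RPKM in JMJD1B-/- libraries. All 4 of 4 markers were in the table, 0 were called lower or higher in limma, and they summed to 5580 and 1050 RPKM in WT and 4460 and 1120 RPKM in JMJD1B-/- libraries. Leaving out knockout replicate 1 gave 3 of 4 called lower, and leaving out knockout replicate 2 gave 1 called higher. Their part in the Emr1 values was not tested. Cd97, another receptor of the same family, had 17.1 and 22.8 RPKM in WT and 23.9 and 25.4 RPKM in JMJD1B-/- libraries (log2 difference 0.32, unadjusted p = 0.183 in limma), and 0 of 2 such relatives were called.

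**Figure D2:**
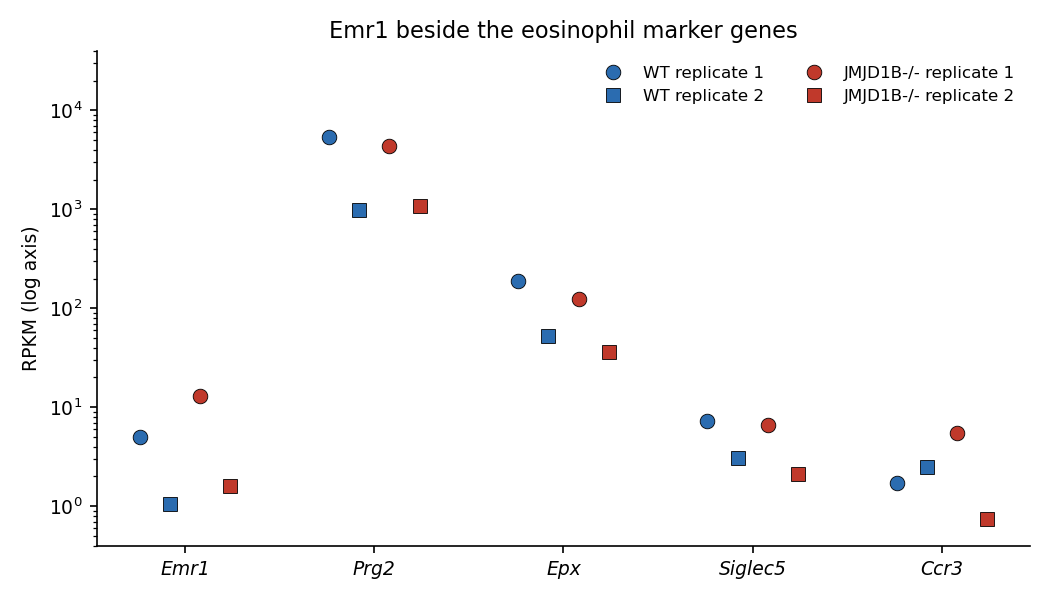
RPKM (log axis) of Emr1 and of the 4 eosinophil marker genes in each of the 4 libraries, 1 symbol per library. Emr1, Prg2, Epx and Siglec5 are higher in replicate 1 (circles) than in replicate 2 (squares) in both genotypes, and Ccr3 only in JMJD1B-/-.

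The spread among the members came mostly from the knockout libraries. JMJD1B-/- replicate 2 was below replicate 1 for 8 of 9 members, with a median log2 difference of -1.28, while 34.4% of all genes tested were lower there and their median was 0.18. WT replicate 2 was below WT replicate 1 for 5 of 9 members, with a median of -0.10. The summed level of the 9 genes was 135 and 147 RPKM in WT and 104 and 37.6 RPKM in JMJD1B-/- libraries, so the deeper knockout library was also the one with the lower sum. JMJD1B-/- replicate 2 was the lowest of the 4 libraries for 7 of 9 members, against 20.3% of all genes tested. Both knockout libraries were below both WT libraries for 5 of 9 members, against 22.7% of all genes tested, and above them for 0 of 9, against 20.1%.

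**Figure D3:**
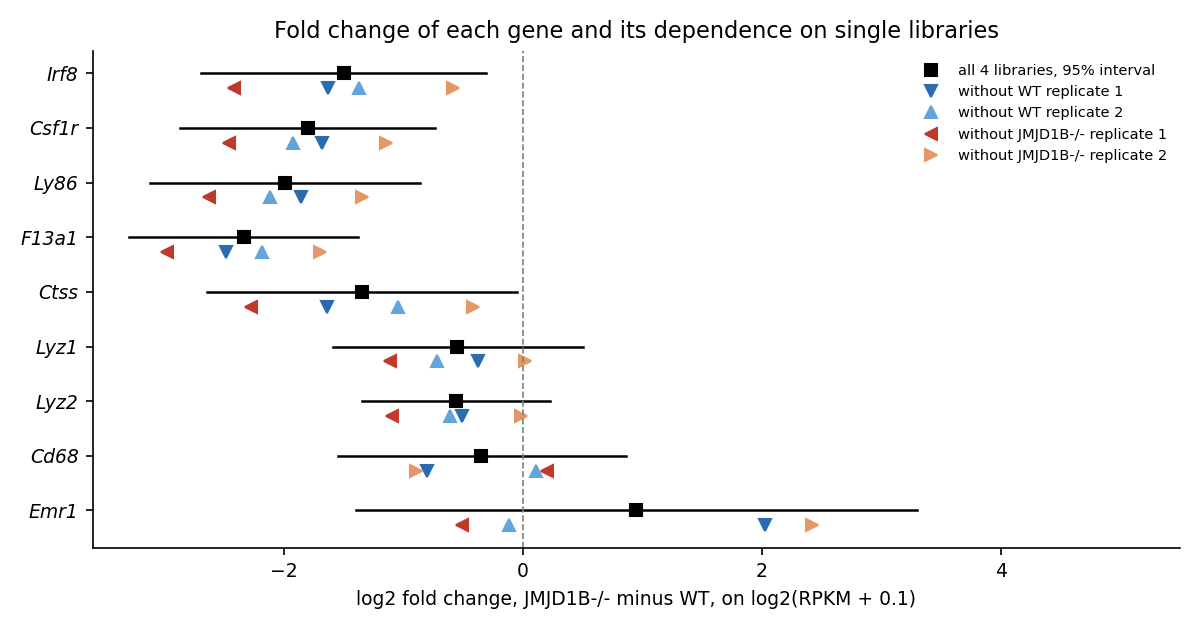
Difference between genotypes for each gene, JMJD1B-/- minus WT on log2(RPKM + 0.1), with its 95% interval from limma (squares and lines) and the values when 1 library is left out (triangles). F13a1, Ly86, Csf1r, Irf8 and Ctss stay below 0 throughout, and the values without JMJD1B-/- replicate 2 are nearer to 0 than those without replicate 1 for each of the 5 called genes.

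Over the 4 libraries, the gene whose pattern was most like that of Csf1r among 11212 genes was another member, Ly86, at a Euclidean distance of 0.189 between centred log2 values. Alox5, which makes leukotrienes, came next at 0.193, with 21.1 and 16.0 RPKM in WT and 7.8 and 3.64 RPKM in JMJD1B-/- libraries. Ugt1a9, a glucuronosyltransferase, came after it at 0.208, with 1.77 and 1.41 RPKM in WT and 0.657 and 0.26 RPKM in JMJD1B-/- libraries. The other called members were Irf8 at rank 74, F13a1 at rank 99 and Ctss at rank 168, while Cd68 and Emr1 were at ranks 8606 and 11047. Likeness over 4 libraries is given as a description, with no test.

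Other transcription factors of monocytes and dendritic cells were counted as a list of 19, of which 15 were tested. The others, among them Spi1, the gene of PU.1, Egr2 and Batf3, were not analysed here. In limma 4 of 15 were called lower and 1 higher, with a median log2 difference of -0.47. Cebpa, required for the granulocyte and monocyte progenitor, had 13.4 and 12.7 RPKM in WT and 1.05 and 2.36 RPKM in JMJD1B-/- libraries, a log2 difference of -2.96 (unadjusted p = 0.000129, adjusted p = 0.0768). Irf1, the interferon-induced relative of Irf8, had 10.4 and 12.2 RPKM in WT and 6.5 and 4.51 RPKM in JMJD1B-/- libraries, a log2 difference of -1.04 (unadjusted p = 0.00708, adjusted p = 0.32). Gfi1, which favours granulocytes, and Klf4, needed for inflammatory monocytes, were lower by unadjusted p-values of 0.0464 and 0.047. Maf, a factor of resident macrophages, was called higher, with 0.8 and 1.16 RPKM in WT and 14.3 and 2.32 RPKM in JMJD1B-/- libraries (log2 difference 2.47, unadjusted p = 0.015, adjusted p = 0.389), and most of that difference was in replicate 1. This call was lost when WT replicate 1 or knockout replicate 1 was left out, and its log2 difference was 1.19 without the latter. The differences of Gfi1 and Klf4 were -0.59 and -0.45 when knockout replicate 2 was left out. The count called lower was 1 when WT replicate 2 was left out and 6 when knockout replicate 1 was.

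The receptors, ligands and kinases around Csf1r were lower as well. Of 15 tested of 16 listed, 7 were called lower and 0 higher in limma, 15 of 15 were negative and the median log2 difference was -0.57. This median ran from -1.20 to -0.39 when 1 library was left out. Csf1, a ligand of Csf1r, had 7.96 and 7.23 RPKM in WT and 1.66 and 0.777 RPKM in JMJD1B-/- libraries, a log2 difference of -2.63 (unadjusted p = 0.000451, adjusted p = 0.148). Flt3, the receptor of early lymphoid and dendritic progenitors, had 25.1 and 32.6 RPKM in WT and 18.4 and 3.37 RPKM in JMJD1B-/- libraries, a log2 difference of -1.84 (unadjusted p = 0.0265, adjusted p = 0.433). Csf2rb and Csf2rb2, the beta chains of the GM-CSF, IL-3 and IL-5 receptors, differed by -1.60 and -1.47 in log2 (unadjusted p = 0.0138 and 0.016 in limma), Il6ra by -1.19 (unadjusted p = 0.00403) and Csf3r, the G-CSF receptor, by -1.07 (unadjusted p = 0.0154). The near-identical Csf2rb copies can share reads, so their separate values are uncertain. The differences of Flt3, Csf2rb and Csf2rb2 were -0.64, -0.78 and -0.71 when knockout replicate 2 was left out, and -3.05, -2.43 and -2.22 when knockout replicate 1 was. The count of this list called lower was 1 when WT replicate 1 was left out, 4 when WT replicate 2 was and 10 when knockout replicate 1 was. Over all genes the count called lower moved as well, from 751 to 190, 282 and 1349 in the same fits.

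Genes of classical monocytes, the cells that leave the marrow for inflamed tissue, were also lower for 4 of 10 tested of 13 listed, with 0 higher and a median log2 difference of -1.14. The median of these genes ran from -1.61 to -0.55 when 1 library was left out. Ms4a6c, a membrane protein of monocytes, had 14.2 and 13.7 RPKM in WT and 5.72 and 1.83 RPKM in JMJD1B-/- libraries (log2 difference -2.07, unadjusted p = 0.00335, adjusted p = 0.258 in limma). Plac8, abundant in myeloid progenitors, had 211 and 156 RPKM in WT and 103 and 61.6 RPKM in JMJD1B-/- libraries (-1.19, unadjusted p = 0.00323, adjusted p = 0.258 in limma). Ly6c2, the surface antigen of classical monocytes, differed by -1.09 in log2 (unadjusted p = 0.0436 in limma), with overlapping genotypes. Leaving out knockout replicate 2 gave -1.27 for Ms4a6c and -0.51 for Ly6c2, and leaving out WT replicate 1 gave -0.57 for Ly6c2. Ly6c2 has a near-identical neighbour, Ly6c1, with which it can share reads. S100a4 was the 1 of 10 with a difference above 0, and it had 13 and 20.3 RPKM in WT and 77.3 and 9.42 RPKM in JMJD1B-/- libraries. Here the count called lower was 9 when knockout replicate 1 was left out, and 2 when WT replicate 1 was.

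Non-classical monocyte and tissue macrophage genes had medians whose sign depended on single libraries. Of the 7 non-classical genes tested of 9 listed, 1 was called lower, Pou2f2, at a log2 difference of -1.18 (unadjusted p = 0.0476 in limma), and the median was 0.02, or -0.16 to 0.21 when 1 library was left out. The count called lower was 0 when either WT library was left out and 3 when knockout replicate 1 was. Of 19 tissue macrophage genes 7 were tested, with 1 called lower, 1 higher and a median of 0.33, and 11 were not analysed here, among them Mertk, Mrc1, Siglec1 and C1qa. Vcam1, an adhesion molecule of marrow macrophages and stroma, was lower at 10.8 and 2.78 RPKM in WT and 2.02 and 0.572 RPKM in JMJD1B-/- libraries (log2 difference -2.23, unadjusted p = 0.0209, adjusted p = 0.424 in limma). Slc40a1, the iron exporter ferroportin, was higher at 12.3 and 17.9 RPKM in WT and 23.1 and 26.1 RPKM in JMJD1B-/- libraries (log2 difference 0.72, unadjusted p = 0.0188, adjusted p = 0.414 in limma), and it is also made by erythroid cells. The median of the tissue macrophage list turned to -0.32 when WT replicate 2 was left out and to -0.59 when knockout replicate 1 was. The count called higher was 2 when knockout replicate 1 was left out and 3 when knockout replicate 2 was. The Vcam1 call was lost when WT replicate 1 or knockout replicate 2 was left out, and the Slc40a1 call when WT replicate 1 was.

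Some relatives of Ly86, Ctss and F13a1 were called lower, and the share called lower among all genes tested was 6.33%. Cd180, the partner of Ly86, had 10.1 and 8.96 RPKM in WT and 5.7 and 6.03 RPKM in JMJD1B-/- libraries (log2 difference -0.69, unadjusted p = 0.0256, adjusted p = 0.433 in limma), and it was the 1 gene called of 6 tested in the Toll-like receptor list. The widest difference in that list was that of Tlr4, a receptor of bacterial lipopolysaccharide, at 1.74 and 1.06 RPKM in WT and 0 and 0.692 RPKM in JMJD1B-/- libraries, and it was not called (log2 difference -2.37, unadjusted p = 0.0789 in limma). The 0 was in JMJD1B-/- replicate 1, the shallowest library, where 3 reads on 1 kb are 0.491 RPKM. The size of the Tlr4 difference therefore depends on the 0.1 added to each value. Among 13 tested genes of cysteine cathepsins, their inhibitors and the invariant chain, 3 were called lower and 0 higher, and 2 of these are inhibitors. Cst3, cystatin C, had 38.5 and 52.9 RPKM in WT and 23.7 and 25.6 RPKM in JMJD1B-/- libraries (-0.87, unadjusted p = 0.00418 in limma), and Cst7, cystatin F, differed by -0.98 (unadjusted p = 0.00396). Ctso, a further cathepsin, differed by -0.84 (unadjusted p = 0.046). The count of this list called lower was 1 when WT replicate 2 was left out and 6 when knockout replicate 1 was. Of 4 tested transglutaminase and coagulation genes 1 was called lower, F10, coagulation factor X, at 6.32 and 5.79 RPKM in WT and 2.3 and 2.42 RPKM in JMJD1B-/- libraries (log2 difference -1.32, unadjusted p = 0.0038 in limma). The count called in the Toll-like receptor list was 0 when either WT library was left out and 2 when either knockout library was. In the coagulation list it was 0 when WT replicate 1 was left out and 2 when knockout replicate 1 was.

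**Figure D4:**
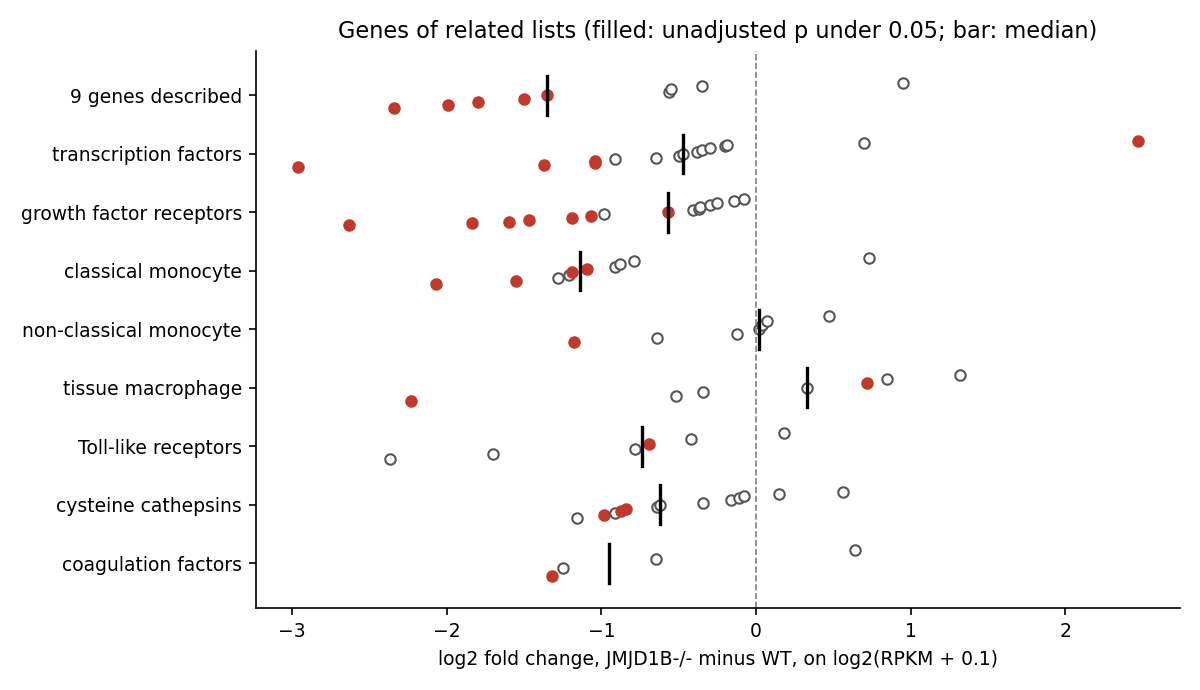
Difference between genotypes, JMJD1B-/- minus WT on log2(RPKM + 0.1), for the 9 genes and the genes of 8 related lists, 1 circle per gene tested. Filled circles have an unadjusted p under 0.05 in limma and bars are medians, which run from -1.35 for the 9 genes to 0.33 for the tissue macrophage list.

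Markers of other blood cells differed between genotypes beside the 9 genes. Granulocyte markers summed to 292 and 202 RPKM in WT and 88.5 and 55.4 RPKM in JMJD1B-/- libraries, with 5 of 8 tested called lower and 2 higher. S100a9 was among the higher, at 2.79 and 1.41 RPKM in WT and 8.01 and 10.8 RPKM in JMJD1B-/- libraries (log2 difference 2.17, unadjusted p = 0.000837 in limma). Basophil and mast cell markers summed to 505 and 576 RPKM in WT and 113 and 46.4 RPKM in JMJD1B-/- libraries, with 7 of 7 called lower. Dendritic cell markers, of a cell type that shares Irf8, Ctss and Ly86, summed to 40.0 and 64.4 RPKM in WT and 36.5 and 33.2 RPKM in JMJD1B-/- libraries, with 3 of 10 called lower, or 0 when WT replicate 2 was left out and 6 when knockout replicate 1 was. These cells share progenitors with monocytes. Erythroid markers went the other way, at 712 and 1020 RPKM in WT and 1920 and 2560 RPKM in JMJD1B-/- libraries, with 8 of 9 called higher. The T and NK cell markers were highest in JMJD1B-/- replicate 1, at 96.1 RPKM against 19.7 to 37.4 RPKM in the other libraries, with 2 of 8 called higher and 1 lower, or 7 higher when knockout replicate 2 was left out. Without knockout replicate 1 instead, 0 were called higher and 3 lower, and without either WT library 1 was called higher. The 1 lower was Nkg7, of cytotoxic cells, at 14.0 and 15.3 RPKM in WT and 7.19 and 4.84 RPKM in JMJD1B-/- libraries (unadjusted p = 0.00176 in limma). The stroma and endothelium markers summed to 35.5 and 57.6 RPKM in WT and 23.3 and 9.21 RPKM in JMJD1B-/- libraries, with 1 of 4 called lower, or 3 when WT replicate 1 or knockout replicate 1 was left out. Their median log2 difference was -1.42, and it turned to 0.41 when WT replicate 2 was left out. The part of these cell types in the results for the 9 genes was not tested.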

How the data were processed

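RNA-seq of HSPCs was analysed from 2 WT and 2 JMJD1B-/- libraries. Gene expression was deposited by the authors as RPKM values to which 1 had been added, and RPKM here is the deposited value minus 1. Its 12024 entries carry 11982 gene names, and the 42 names with more than 1 entry were averaged. The highest of a gene's 4 deposited values was never under 2, so lowly expressed genes are not in it. The submitters' processing notes name TopHat2, Novoalign and mm9 without a role. How reads were counted, on which annotation and with which use of strand are not given in the sources used here. Depth was estimated from 116 genes whose low values were whole numbers of reads (tolerance 0.01 reads). Of the 103 with a RefSeq length, 22 gave the same depth within 0.4%, and any other depth was given by at most 2. On a transcript of 1 kb, 3 reads are 0.171 and 0.122 RPKM in WT and 0.491 and 0.143 RPKM in JMJD1B-/- libraries, which covers counting error only. Reads were not recovered for all genes, so no count test was run.

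Genes whose mean RPKM reached 0.5 were tested two-sided with limma 3.58.1 in R 4.3.3 (lmFit, eBayes with a trend) on log2(RPKM + 0.1), which understates the change of low genes, with Benjamini-Hochberg adjustment over 11863 genes. A gene is called at an unadjusted p under 0.05. The script was tested on simulated data. Python 3.11.15, pandas 2.3.3, numpy 2.4.6, scipy 1.17.1 and matplotlib 3.10.9 were used. Gene names, promoters and neighbours are from RefSeq on GRCm38.p6, not the build of the notes. The 9 genes, the related lists, the markers and the tests were chosen with earlier results of these data known. All 9 genes are named, from each related list up to 6 called genes by size of difference, or else the gene with the largest difference, and the 3 genes most like Csf1r. 1 called gene of the classical monocyte list is not reported here by name. S100a4, S100a9, Tlr4, Nkg7, Cd79b, Prg2, Epx, Siglec5 and Ccr3 were named after their values were seen. Alternatives were pseudocounts of 1 and 0.01, no filter, a filter at a mean RPKM of 1, median-ratio scaling, quantile normalization, limma without a trend, a gene-by-gene linear model, a replicate term and leaving out each library. The sum of Lyz1 and Lyz2 was added after seeing the data.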

Additional observations from a re-analysis of the deposited data

How the results depend on the processing

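Of 119 values for single genes under the alternatives, 97 kept direction and side of the threshold, 13 were no longer called, 4 became called and 5 turned. The filters, limma without the trend, the gene-by-gene linear model and the replicate term leave a log2 difference unchanged, so direction could not turn there. All 5 turned in fits that left out 1 library. Those that turned were Emr1 (log2 difference -0.51 to 2.42 when 1 library was left out, with -0.12 without WT replicate 2), Cd68 (-0.90 to 0.20, with 0.11 without WT replicate 2) and Lyz1 (-1.11 to 0.02). The count of the 9 genes called lower was 3 in limma without the trend and 0 in the gene-by-gene linear model, which called 512 of all genes lower and 348 higher at an unadjusted p under 0.05. Leaving out 1 library, it ran from 3 to 7, the count called higher from 0 to 1, the count with an adjusted p under 0.05 from 0 to 6, and the median log2 difference from -2.28 to -0.59, both ends being set by the 2 JMJD1B-/- libraries. Over all genes, leaving out 1 library gave 190 to 1777 called lower, 127 to 1367 called higher and 1 to 989 with an adjusted p under 0.05. In these fits the lone library of a genotype is assumed to vary like the other genotype. The count of all genes with an adjusted p under 0.05, 5 as reported, was 18 with a pseudocount of 1, 3 with a pseudocount of 0.01 or a filter at a mean RPKM of 1, 1 with either scaling, and 0 without the trend (768 lower and 346 higher unadjusted) or gene by gene. The cause of these shifts was not tested, except that fewer libraries enter the fits that leave one out. The labels do not say that a replicate number pairs libraries. Same-numbered libraries did not deviate together (r = -0.0543 over 11863 genes, 2 pairs). With 2 pairs this cannot show whether they were paired. With a replicate block, 256 of all genes and 4 of the 9 had an adjusted p under 0.05, and 6 of the 9 were called lower, Lyz2 being added. JMJD1B-/- replicate 1, at about 6100000 reads, was the library with the least depth.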

Other observations

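JMJD1B-/- replicate 1, the library with the highest Emr1, was also the highest library for 4 of the 8 tissue macrophage genes in the table, and it was the highest for 16.6% of all genes tested. WT replicate 1 was the highest for 3 of the 8 and JMJD1B-/- replicate 2 for 1. The genes named here were chosen after their values were seen and have no test. Hmox1, heme oxygenase, had 2.4 and 1.52 RPKM in WT and 14.8 and 1.58 RPKM in JMJD1B-/- libraries. Id2, a factor of dendritic and innate lymphoid cells, had 6.69 and 9.25 RPKM in WT and 26.9 and 6.11 RPKM in JMJD1B-/- libraries. C1qb, a chain of complement C1q, had 0.544 and 0.232 RPKM in WT and 1.85 and 0.257 RPKM in JMJD1B-/- libraries. Ccr2, which lets classical monocytes leave the marrow, was at the WT level in JMJD1B-/- replicate 1 and low in replicate 2, with 36.5 and 57.0 RPKM in WT and 46.7 and 8.2 RPKM in JMJD1B-/- libraries.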
